A study of Mus musculus with 20 samples.

Results

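The 8 genes described here encode enzymes of fatty acid oxidation and ketone body synthesis: Cpt1a, Cpt2, Acadm, Acadl, Acadvl, Hadha, Ehhadh and Bdh1. They were taken by gene symbol from both deposited count tables, in which they are 8 of 50559 genes. All 8 were among the 14333 genes that passed the filter on low counts. RNA-seq had been run on 20 mouse liver libraries in 4 groups of 5. The FGF19 + MYC and Aldafermin + MYC groups were tumors from wild-type C57BL/6J mice that had received both plasmids by hydrodynamic gene transfer, an injection into the tail vein that delivers DNA to a subset of hepatocytes. FGF19 is the human gut hormone that limits bile acid synthesis, and Aldafermin is an analog of it that was changed at the N-terminus. The sgTrp53 + MYC group were tumors obtained with a guide RNA against Trp53 and the same MYC plasmid, so that every tumor carried MYC. Healthy liver was the control: the labels call it untreated, whereas the study's methods describe a plasmid for RFP in controls. All mice were females, injected at an age of 6 to 8 weeks and fasted for 5 h before collection. Each library came from an individual tumor or liver of a separate mouse. MYC was carried by a Sleeping Beauty transposon under the EF1a promoter, which is not restricted to hepatocytes.

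Long-chain fatty acids enter the mitochondrion as carnitine esters, made by Cpt1a on the outer membrane and turned back into acyl-CoA by Cpt2 on the inner membrane. Each round of beta-oxidation then starts with an acyl-CoA dehydrogenase that fits the chain length and goes on with hydration, another oxidation and thiolysis, while peroxisomes run a parallel pathway with enzymes of their own, Ehhadh among them. In the fasted liver much of the acetyl-CoA becomes ketone bodies, a hallmark of the hepatocyte, and Bdh1 acts at the end of that route.

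Counts assigned to genes ranged from 18004977 to 44427184 per library in the table that held the FGF19 + MYC, Aldafermin + MYC and liver libraries, and from 54042455 to 66354724 in the separate table of the sgTrp53 + MYC libraries. The share of reads that were ambiguous between genes was 3.03% to 6.30% in the first table and 11.1% to 14.6% in the second, and for every difference that involves sgTrp53 + MYC tumors, group and table cannot be told apart. Trp53 itself stood at 18.7, 79.9, 35.4, 51.0 and 48.8 CPM (counts relative to the total of the library, scaled by edgeR's TMM factors as all CPM values here) in the sgTrp53 + MYC libraries, at 90.8 to 176 in Aldafermin + MYC tumors, at 110 to 155 in FGF19 + MYC tumors and at 28.8 to 36.4 in livers. It was lower in sgTrp53 + MYC tumors than in the other tumors in every library, although a guide RNA changes the coding sequence and need not change the RNA level. The 10 hepatocyte markers (Alb, Ttr, Cyp2e1 and others) summed to 188300 to 240800 CPM in livers, 9476 to 30380 in FGF19 + MYC, 8670 to 23010 in Aldafermin + MYC and 3991 to 11980 in sgTrp53 + MYC tumors. None of them was at 0 in a whole group, and all 10 were called lower in both comparisons of tumors with liver (9 with total counts alone). The 4 carcinoma markers (Afp, Gpc3, H19, Igf2) summed to at most 57.3 CPM in livers and at least 14830 in every tumor. Macrophage markers summed to 278 to 393 CPM in livers and 55.8 to 298 in tumors, the range in sgTrp53 + MYC tumors being 55.8 to 103. The list was split: of its 5 markers 3 and 4 were called lower than liver, and 1 was called higher in both comparisons. Cd68 averaged 16.9 CPM in livers, 49.6 in FGF19 + MYC, 79.05 in Aldafermin + MYC and 36.6 in sgTrp53 + MYC tumors. These shifts accompany each comparison with liver below, and their part in the results was not tested. Liver replicates 4 and 5 stood below replicates 1 to 3 for all 8 members, as for 16.9% of all genes tested. Without both, in a comparison added after the values were seen, 8 of 8 members were still called lower in each comparison with liver, the log2 fold changes moving by -0.09 to -0.26. In such bulk samples fewer hepatocytes and less RNA per hepatocyte cannot be told apart.

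On GRCm39 the genes lie apart from one another. Cpt1a is at chr19:3371853-3437996 on the plus strand and Cpt2 at chr4:107751473-107780812 on the minus strand. Of the dehydrogenases, Acadm is at chr3:153627989-153650317, Acadl at chr1:66868267-66902633 and Acadvl at chr11:69900853-69906270, all 3 on the minus strand. Hadha is at chr5:30323302-30360187 and Ehhadh at chr16:21580036-21606563, both on the minus strand, and Bdh1 is at chr16:31241087-31277725 on the plus strand. Upstream sequences are shown for Ehhadh and Acadvl, the members with the largest fall in FGF19 + MYC and Aldafermin + MYC tumors, and for Hadha, which starts 65 bases from its partner gene Hadhb on the other strand. They were read from the GRCm39 genome in the direction of the gene named, cover the bases before the start of the GENCODE canonical transcript that no annotated exon covers (chr16:21606564-21606813, chr11:69906271-69906519 and chr5:30360188-30360235), and show in capitals a CCAAT match in Ehhadh (read as ATTGG, on the other strand) and an AGGTCA match in Acadvl.
Ehhadh: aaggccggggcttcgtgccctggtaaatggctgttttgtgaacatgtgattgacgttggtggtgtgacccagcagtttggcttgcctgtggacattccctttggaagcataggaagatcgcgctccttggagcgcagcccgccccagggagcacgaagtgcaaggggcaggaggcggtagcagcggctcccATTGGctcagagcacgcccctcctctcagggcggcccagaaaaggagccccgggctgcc
Acadvl: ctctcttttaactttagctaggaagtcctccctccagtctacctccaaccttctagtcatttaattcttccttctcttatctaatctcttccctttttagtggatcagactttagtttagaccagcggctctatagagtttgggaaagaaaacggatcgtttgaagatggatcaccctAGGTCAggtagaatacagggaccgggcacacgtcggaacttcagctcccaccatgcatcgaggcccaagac
Hadha: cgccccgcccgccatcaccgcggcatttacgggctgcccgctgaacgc
The core site of the PPAR, RXR and HNF4 family of nuclear receptors, AGGTCA on either strand, was present in the window from 250 bases before to 50 bases after the start of 3 of the 8 members (Acadvl, Cpt1a and Hadha), against 15.1% of 21770 protein-coding genes. The direct repeat of AGGTCA with 1 base between, the full element of PPAR with RXR, was in none of the 8 windows and in 0.0459% of all. The E-box CACGTG, which MYC and MAX bind, was in none of the 8 and in 7.81% of all, and CCAAT was in 3 of the 8 (Acadl, Cpt1a and Ehhadh) and in 39.9% of all. These are letter matches in a short window. GC content of the 250 bases before the start ranged from 35.6% in Acadl to 66.0% in Hadha, with a median of 53.2% over all windows, so the members differed widely in base composition.

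The first question was how tumors differed from liver, and all 8 genes were lower in the combined FGF19 + MYC and Aldafermin + MYC tumors. The fall ran from 2.48-fold for Cpt1a to 15.4-fold for Ehhadh, with a median log2 fold change of -1.46 over the 8 against 0.10 over all genes tested. In edgeR's quasi-likelihood test 34.5% of all genes were called lower and 39.2% higher at an adjusted p under 0.05, and the members were 8 of 8 lower. Every one of the 10 tumors was below every one of the 5 livers for each member, as for 25.7% of all genes tested. Scaling to the total counts alone, in which the median of all genes moved to 0.94 and the share of calls that were higher from 53.2% to 76.9%, kept the 8 directions, but Cpt1a was then no longer called (log2 fold change -0.47, adjusted p = 0.155).

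**Figure D1:**
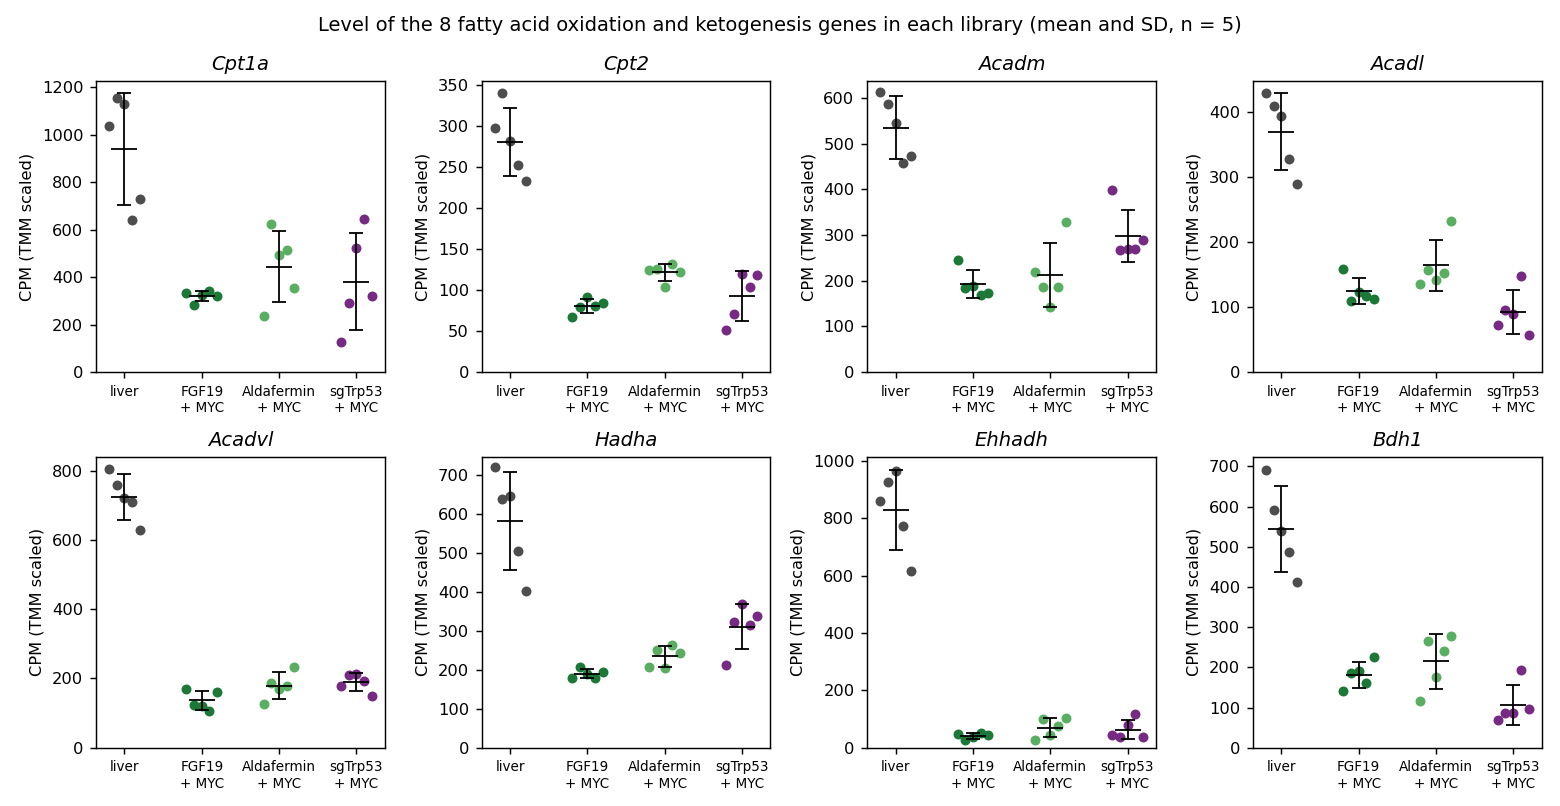
Each panel plots the CPM of 1 gene (vertical axis, from 0) in the 20 libraries by group, with points for libraries in the order of their replicate numbers and bars for the mean and SD of 5. The tumors lie below the livers in every panel except for 1 sgTrp53 + MYC library of Cpt1a at 646, beside the lowest liver at 641; scaled to total counts alone, Acadm in sgTrp53 + MYC tumors is level with liver (log2 fold change 0.02).

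sgTrp53 + MYC tumors were likewise lower than liver for 8 of 8 members, beside 33% of all genes called lower and 36.9% higher, although under scaling to total counts alone only 5 were called lower and Acadm changed direction (0.02, adjusted p = 0.89). That scaling moved the median of all genes from 0.07 to 0.95 and the share of calls that were higher from 52.8% to 77.9%. The fall was 1.79-fold for Acadm, 1.87-fold for Hadha and 13.1-fold for Ehhadh, and the median over the 8 was -1.77 on the log2 scale. For 7 of the 8 no sgTrp53 + MYC library reached the lowest liver, as for 27.4% of all genes tested, and the exception was Cpt1a.

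Cpt1a, the enzyme at which entry of fatty acids into the mitochondrion is controlled, measured 1035, 1152, 1127, 641 and 730 CPM in the 5 livers. It measured 333, 283, 326, 340 and 320 in FGF19 + MYC tumors, 236, 625, 494, 512 and 356 in Aldafermin + MYC tumors and 124, 290, 521, 646 and 319 in sgTrp53 + MYC tumors. The FGF19 + MYC tumors were close together (CV 6.93%), the Aldafermin + MYC tumors less so (33.9%) and the sgTrp53 + MYC tumors spread 5.19-fold from lowest to highest, the widest spread of any member in any group. The log2 fold change against liver was -1.31 ± 0.27 (SE, adjusted p = 0.000242) for FGF19 + MYC and Aldafermin + MYC tumors and -1.30 ± 0.33 (adjusted p = 0.00172) for sgTrp53 + MYC tumors. Of the other isoforms of this enzyme, the muscle form Cpt1b reached at most 0.53 CPM in any library and did not pass the filter, and the brain form Cpt1c rose from 0.863 ± 0.24 CPM in livers to between 5.50 and 8.44 on average in the tumor groups (log2 fold change 3.06 and 2.68).

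Cpt2 read 297, 340, 281, 252 and 233 CPM in livers. In FGF19 + MYC tumors it was at 67.4, 79.2, 91.5, 80.2 and 83.9, in Aldafermin + MYC tumors at 124, 125, 104, 132 and 121, and in sgTrp53 + MYC tumors at 50.8, 70.2, 119, 104 and 119. All 15 tumors were below the livers, and the Aldafermin + MYC tumors lay above all of the FGF19 + MYC tumors. Cpt2 was lower than liver by 2.84-fold in FGF19 + MYC and Aldafermin + MYC tumors (log2 -1.51 ± 0.16, adjusted p = 5.02e-08) and by 3.03-fold in sgTrp53 + MYC tumors (-1.60 ± 0.19, adjusted p = 4.62e-07). Slc25a20, the carrier that takes acylcarnitines across the inner membrane between these enzymes, was 3.52-fold and 4.93-fold lower.

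Acadm, the dehydrogenase of medium-chain acyl-CoA, stood at 614, 587, 546, 458 and 472 CPM in livers. FGF19 + MYC tumors had 246, 184, 188, 169 and 174, Aldafermin + MYC tumors had 219, 187, 142, 186 and 330, and sgTrp53 + MYC tumors had 399, 268, 268, 270 and 289. The tumors did not overlap with liver, and 4 of 5 sgTrp53 + MYC libraries were almost at 1 level with 1 library above them. The log2 fold change was -1.41 ± 0.16 (adjusted p = 1.85e-07) in FGF19 + MYC and Aldafermin + MYC tumors and -0.84 ± 0.19 (adjusted p = 0.000727) in sgTrp53 + MYC tumors, the latter being the smallest fall of a member.

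Acadl, which acts on long chains and is the main long-chain dehydrogenase of the mouse beside Acadvl, measured 428, 408, 394, 327 and 289 CPM in livers. FGF19 + MYC tumors gave 159, 109, 123, 116 and 113, Aldafermin + MYC tumors 136, 157, 141, 152 and 233, and sgTrp53 + MYC tumors 71.8, 95.8, 88.5, 147 and 57.5. Again no tumor reached the livers. Here the sgTrp53 + MYC tumors were the lowest on average (92.2 CPM), although replicate 4, at 147, lay within the range of the other tumors. The fall against liver was 2.59-fold (log2 -1.37 ± 0.18, adjusted p = 1.04e-06) in FGF19 + MYC and Aldafermin + MYC tumors and 4.01-fold (-2.0 ± 0.22, adjusted p = 1.56e-07) in sgTrp53 + MYC tumors.

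Acadvl, the membrane-bound dehydrogenase for very long chains, had 805, 760, 721, 710 and 628 CPM in livers. It had 170, 125, 121, 107 and 161 in FGF19 + MYC tumors, 127, 187, 169, 178 and 234 in Aldafermin + MYC tumors and 179, 211, 214, 192 and 149 in sgTrp53 + MYC tumors. The gap to liver was wide: the highest tumor had 234 CPM and the lowest liver 628. The fall was 4.63-fold (log2 -2.21 ± 0.14, adjusted p = 3.37e-11) and 3.84-fold (-1.94 ± 0.17, adjusted p = 6.80e-09). By the GENCODE annotation 38.2% of the exon bases of Acadvl lie opposite Dvl2, and without the strand setting of the counting, which is not given in the sources used here, reads of the overlap cannot be assigned with certainty.

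Hadha, the subunit of the mitochondrial trifunctional protein that hydrates and oxidizes long chains, measured 719, 637, 644, 505 and 403 CPM in livers. The values were 180, 206, 189, 179 and 195 in FGF19 + MYC tumors, 207, 251, 205, 264 and 244 in Aldafermin + MYC tumors and 212, 321, 367, 315 and 337 in sgTrp53 + MYC tumors. No tumor overlapped with the livers, and 4 of 5 sgTrp53 + MYC libraries were above all of the other tumors. The log2 fold change was -1.46 ± 0.14 (adjusted p = 1e-08) and -0.91 ± 0.16 (adjusted p = 6.95e-05), respectively, the latter becoming -0.0092 (adjusted p = 0.967) with total counts alone. Hadhb, the thiolase subunit of the same protein, starts next to Hadha as shown above and fell less, by 1.62-fold in FGF19 + MYC and Aldafermin + MYC tumors (log2 -0.69 ± 0.12, adjusted p = 5.41e-05), and was not called in sgTrp53 + MYC tumors (-0.30 ± 0.15, adjusted p = 0.0772), while with total counts alone it stood at 0.14 (not called) and 0.58 (called higher). Reads of Hadha per 100 reads of Hadhb in the same library, a ratio that no scaling can move, were 220 ± 18.3 in livers, 131 ± 22.2 in FGF19 + MYC, 135 ± 25.9 in Aldafermin + MYC and 146 ± 29.6 in sgTrp53 + MYC tumors (SD, n = 5), with no tumor (at most 171) reaching the lowest liver (203). The pair overlap: 31.0% of the exon bases of Hadha lie opposite Garem2 or Hadhb.

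Ehhadh, the bifunctional hydratase and dehydrogenase of peroxisomes and a widely used marker of PPARalpha activity, changed most. It stood at 862, 926, 966, 775 and 616 CPM in livers and at 48.2, 25.9, 36.0, 51.3 and 43.9 in FGF19 + MYC tumors. Aldafermin + MYC tumors had 26.1, 101.4, 44.6, 76.0 and 103, and sgTrp53 + MYC tumors had 45.1, 36.9, 80.4, 116 and 38.0. The highest of the 15 tumors, at 116 CPM, was far below the lowest liver, at 616. The log2 fold change was -3.95 ± 0.30 (adjusted p = 6.07e-10) in FGF19 + MYC and Aldafermin + MYC tumors and -3.71 ± 0.39 (adjusted p = 8.28e-08) in sgTrp53 + MYC tumors. Reads of Ehhadh per 100 reads of Hadha went from 144 ± 14 in livers to 21.9 ± 6.43 in FGF19 + MYC, 29.2 ± 12.6 in Aldafermin + MYC and 20.6 ± 10.5 in sgTrp53 + MYC tumors. The lowest liver had 120 and the highest tumor 42.4, so the peroxisomal enzyme was lower in every tumor relative to the mitochondrial one as well. The gene pairs of these ratios, and of that of Acadl to Acadm below, were chosen after their values were seen.

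**Figure D2:**
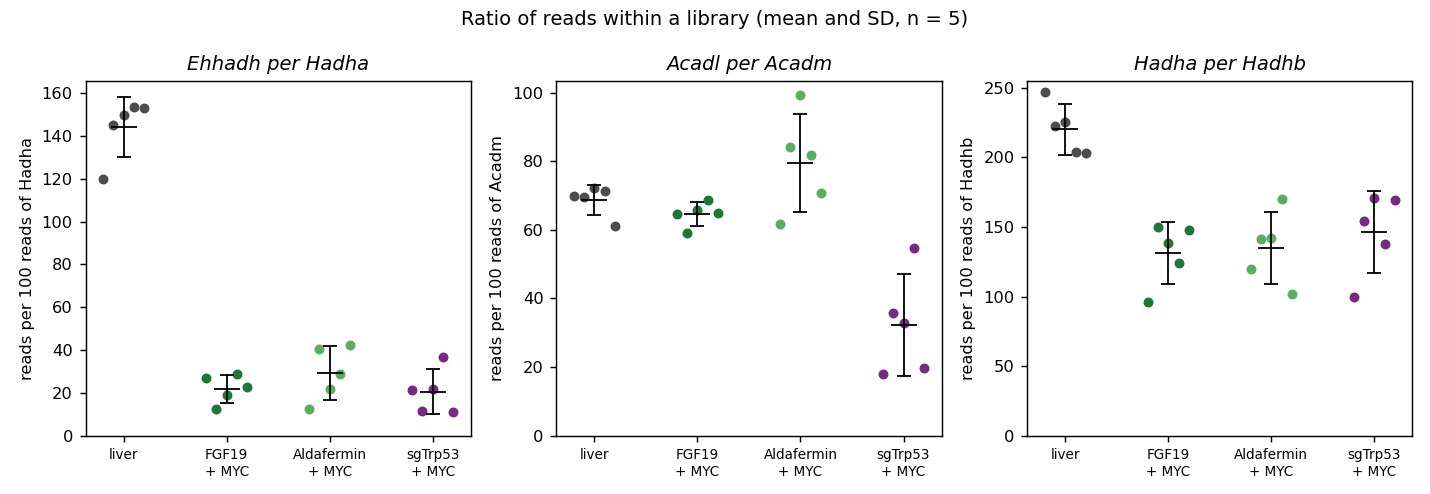
Points give, for each of the 20 libraries by group, the reads of 1 gene per 100 reads of another (vertical axes, from 0), with the mean and SD of 5. Ehhadh per Hadha and Hadha per Hadhb are lower in all tumors than in livers, and Acadl per Acadm is lower in the 5 sgTrp53 + MYC tumors (18.0 to 54.7) than in all other libraries (59.1 to 99.3).

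Bdh1, the enzyme that interconverts acetoacetate and beta-hydroxybutyrate, read 692, 591, 539, 487 and 411 CPM in livers. It read 141, 186, 190, 162 and 226 in FGF19 + MYC tumors, 115, 265, 177, 240 and 278 in Aldafermin + MYC tumors and 70.2, 86.6, 85.5, 194 and 95.6 in sgTrp53 + MYC tumors. All tumors were below the livers, and 4 of 5 sgTrp53 + MYC tumors were below the lowest of the other tumors. The fall was 2.76-fold (log2 -1.46 ± 0.22, adjusted p = 6.82e-06) and 5.11-fold (-2.35 ± 0.28, adjusted p = 3.62e-07). Of its exon bases, 22.5% lie opposite the long non-coding RNA gene Gm15743.

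Levels can be compared between the genes only per length, here as CPM per kb of annotated exon (mean ± SD, n = 5). In livers Ehhadh was first at 267 ± 44.9 and Acadvl next at 184 ± 16.7, their ranges overlapping, and Bdh1 came after a gap at 119 ± 23.2. Acadl (94.6 ± 15), Cpt1a (85.7 ± 21.6), Acadm (84.9 ± 10.9), Cpt2 (81.2 ± 12) and Hadha (60.9 ± 13.2) followed, each overlapping with its neighbour. The order in liver depends on the length used, since Ehhadh ranked 2 by canonical transcript and 4 by coding sequence. In each of the tumor groups Ehhadh was the lowest of the 8 by all 3 lengths, at 13.3 ± 3.30 in FGF19 + MYC, 22.7 ± 11.1 in Aldafermin + MYC and 20.4 ± 11.2 in sgTrp53 + MYC tumors per kb of exon. In FGF19 + MYC tumors it did not overlap with the next gene by any of the lengths (Hadha at 19.9 ± 1.18 per kb of exon). In Aldafermin + MYC tumors it overlapped by exon length but not by canonical transcript or coding sequence. In sgTrp53 + MYC tumors it overlapped by all 3.

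The groups of tumors were then compared with each other, the question being how tumors driven by FGF19 or its analog differ from MYC tumors obtained with the guide against Trp53. Of the 8 members, 2 were higher in the tumors with FGF19 or Aldafermin than in those with sgTrp53 and 2 were lower, beside 11.6% and 12.1% of all genes. Bdh1 was higher by 1.86-fold (log2 0.89 ± 0.24, adjusted p = 0.0112) and Acadl by 1.55-fold (0.63 ± 0.19, adjusted p = 0.0222). Hadha was lower by 1.47-fold (-0.56 ± 0.14, adjusted p = 0.00698) and Acadm by 1.48-fold (-0.56 ± 0.16, adjusted p = 0.0178). Since both groups are set against the same livers, this contrast is also the test of the difference between their changes from liver. The ranges of the tumor groups overlapped for all 8 members, and they did not for 5.7% of all genes tested. Markers of other cells differed in the same contrast: 4 of 5 cholangiocyte markers were lower (median log2 fold change -3.00). Their sum reached 778.7 CPM in sgTrp53 + MYC replicate 2. The median sum was 28.4 CPM in sgTrp53 + MYC, 39.1 in FGF19 + MYC and 18.2 in Aldafermin + MYC tumors. In this contrast 3 of 5 macrophage, 2 of 5 erythroid and 3 of 10 hepatocyte markers were higher and 1 hepatocyte marker lower. Their part in the result was not tested.

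Leaving out sgTrp53 + MYC replicate 1, which had the highest Acadm and the lowest Cpt1a, Cpt2, Hadha and Bdh1 of its group, ended the calls of Acadm (-0.44, adjusted p = 0.0583) and Acadl (0.55, adjusted p = 0.0537), and leaving out replicate 5 ended that of Acadl (0.50, adjusted p = 0.074), as did testing with no filter on low counts (0.52, adjusted p = 0.0838). Without Aldafermin + MYC replicate 5, Acadvl was called lower as well (-0.37, adjusted p = 0.0486). With an offset for GC content and exon length, Acadm and Bdh1 were not called (-0.46, adjusted p = 0.0541, and 0.66, adjusted p = 0.054). Hadha was called under every one of the 31 alternatives (log2 fold change -0.67 to -0.48), none of which separates group from table. The remaining 4 members were not called: Acadvl at -0.27 [95% interval -0.57, 0.03], Ehhadh at -0.24 [-0.87, 0.40], Cpt2 at 0.09 [-0.25, 0.44] and Cpt1a at -0.01 [-0.60, 0.58]. As a description of the same reads, Acadl per 100 reads of Acadm was 68.8 ± 4.37 in livers, 64.6 ± 3.49 in FGF19 + MYC, 79.6 ± 14.2 in Aldafermin + MYC and 32.3 ± 14.8 in sgTrp53 + MYC tumors.

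**Figure D3:**
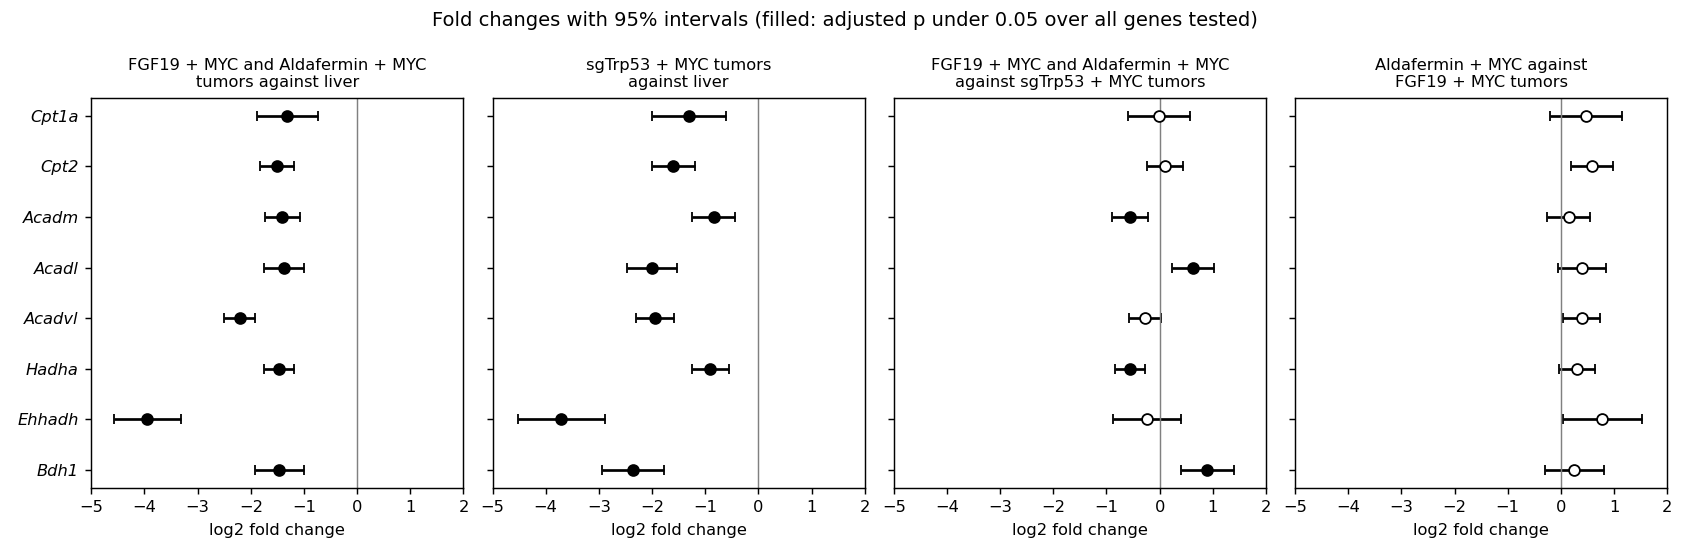
Points are log2 fold changes (horizontal axes) of the 8 genes in the 4 comparisons with 95% intervals, filled where the adjusted p over all genes tested is under 0.05. All 8 are filled and negative against liver (with scaling to total counts alone Cpt1a in both panels and Hadha and Acadm in sgTrp53 + MYC tumors are not, Acadm turning to 0.02), 4 are filled between tumor groups, and none is filled between Aldafermin + MYC and FGF19 + MYC.

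Aldafermin + MYC and FGF19 + MYC tumors did not differ past the threshold for any of the 8 members, nor for any gene tested (0% called by the quasi-likelihood test, with 1048 of 14333 genes at an unadjusted p under 0.05). By contrast 96 genes were called with DESeq2 and 59 with the likelihood ratio version of edgeR, without any member. All 8 estimates were above 0, as were those of 7704 of all 14333 genes tested. The median log2 fold change of the 8 was 0.39 beside 0.02 over all genes, and 3 of the 8 had an unadjusted p under 0.05. The 10 hepatocyte markers were all below 0 (median -0.34), none with an unadjusted p under 0.05. In the same contrast all 5 erythroid markers (median 1.64, sums of 35.9 to 125 CPM in FGF19 + MYC and 36.7 to 656 in Aldafermin + MYC tumors) had an unadjusted p under 0.05. So had Cd68 (0.67) and Vsig4 (-2.33) of macrophages, Stab2 (-1.0) of endothelium and Cd4 (1.12) of lymphocytes. None of these markers passed the adjusted threshold, and their part in the result was not tested. The interval was 0.20 to 0.99 for Cpt2, 0.04 to 0.74 for Acadvl and 0.03 to 1.52 for Ehhadh, on the log2 scale. Cpt2 (estimate 0.59, adjusted p = 0.377) was the one member whose groups did not overlap, beside 1.46% of all genes tested, from 104 to 132 CPM against 67.4 to 91.5. The intervals of the other 5 reached from -0.21 to 1.15 for Cpt1a, -0.26 to 0.55 for Acadm, -0.05 to 0.85 for Acadl, -0.04 to 0.64 for Hadha and -0.30 to 0.80 for Bdh1. Acadm alone changed sign under an alternative, to -0.09 without Aldafermin + MYC replicate 5.

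Beyond the members, 83 further genes of fatty acid uptake, oxidation, ketone metabolism and their regulation were listed in 9 groups, of which 80 were tested. Against liver, 65 of the 80 were lower and 6 higher in FGF19 + MYC and Aldafermin + MYC tumors (median log2 fold change -1.78), and 56 were lower and 8 higher in sgTrp53 + MYC tumors (-1.80). Of all genes tested 34.5% were lower and 39.2% higher in the former comparison, and 33% and 36.9% in the latter. With scaling to total counts alone 49 of the 80 were lower and 11 higher, and 46 were lower and 18 higher. Of all 14333 genes tested 2629 were then lower and 8763 higher, and 2423 were lower and 8534 higher. All 13 other genes of peroxisomal beta-oxidation were lower in both, with medians of -2.87 and -2.80, and with scaling to total counts alone 13 and 11 of them were. The lowest of the list in FGF19 + MYC and Aldafermin + MYC tumors was the thiolase Acaa1b (-4.31), in sgTrp53 + MYC tumors the reductase Decr2 (-4.32), and the racemase Amacr fell least (-1.23 and -0.88, the latter being 0.00 with total counts alone). Hsd17b4, the other bifunctional enzyme of peroxisomes, fell by 2.14 and 1.91 on the log2 scale, where Ehhadh stood at -3.95 and -3.71.

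Among 10 further dehydrogenases and electron carriers 9 were lower and 1 higher in FGF19 + MYC and Aldafermin + MYC tumors (median -1.22), and 6 were lower and 1 higher in sgTrp53 + MYC tumors (-1.05). With total counts alone 5 were lower and 1 higher (-0.40) and 5 lower and 3 higher (-0.17). The short-chain enzyme Acads was lower in both (-1.02 and -1.28; with total counts alone -0.19, not called, and -0.42), Acad11 fell most (-3.21 and -3.56) and Acad9, which also serves the assembly of respiratory complex I, was higher in both (0.41 and 0.82). Of the 8 other genes of hydration, dehydrogenation and thiolysis 7 and 5 were lower, with medians of -0.98 and -0.93 and Eci2 lowest (-2.59 and -2.51), and with total counts alone 3 were lower in each and 0 and 2 higher. Of those called in sgTrp53 + MYC tumors Eci1 fell least (-0.67, and 0.19, not called, with total counts alone). Hadh, the dehydrogenase for short chains, was at -0.83 (called) and -0.34 (not called), and with total counts alone at 0.00 (not called) and 0.54 (called). In the carnitine shuttle 3 of 4 further genes were lower and Cpt1c higher in both comparisons, carnitine acetyltransferase Crat lowest at -3.25 and -3.33. Uptake and activation had 8 of 9 lower in both, from the bile acid and fatty acid ligase Slc27a5 (-5.51 and -5.09) to Acsl3, which was higher (1.10 and 1.05). With total counts alone 7 and 6 of these 9 were lower and 1 was higher in each.

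Of 5 further genes of ketone body synthesis 3 were lower and 1 higher in FGF19 + MYC and Aldafermin + MYC tumors (median -0.74). In sgTrp53 + MYC tumors 2 were lower and 1 higher (-0.16). With total counts alone 2 were still lower in each comparison, beside 2 and 3 higher, and the medians were 0.07 and 0.69. Bdh2, a cytosolic relative of Bdh1, was not called in either (0.08 and 0.75) but was called higher in both with total counts alone (0.90 and 1.59), while the monocarboxylate carrier Slc16a1, which moves lactate and ketone bodies, was higher in both (1.65 and 1.26). Of the 2 genes of ketone use, Aacs, which activates acetoacetate for lipid synthesis, was lower in both (-1.77 and -2.78). With total counts alone Aacs was at -0.90 (not called) and -1.91 (called lower). Oxct1, with which tissues other than liver use ketone bodies, was at 4.95, 4.73, 4.51, 8.54 and 5.38 CPM in livers and at 51.8, 57.2, 84.0, 15.1 and 32.4 in sgTrp53 + MYC tumors. In FGF19 + MYC tumors it was at 9.03 to 11.8 and in Aldafermin + MYC tumors at 8.45 to 25.1. Oxct1 was thus 8.59-fold higher than liver in sgTrp53 + MYC tumors (log2 3.10 ± 0.38, adjusted p = 5.13e-07), 2.29-fold higher in FGF19 + MYC and Aldafermin + MYC tumors (1.2 ± 0.32, adjusted p = 0.00244), and the contrast between the tumors was called too (-1.90 ± 0.29, adjusted p = 0.000149). The muscle marker list, of a tissue rich in Oxct1, summed to 18.5 to 553 CPM in sgTrp53 + MYC libraries and at most 3.85 elsewhere. Nearly all of it was Ckm (549, 278, 55.5, 16.7 and 455 CPM in sgTrp53 + MYC replicates 1 to 5), Acta1 being at most 0.198 CPM there and Myh4 at 0. Oxct1 was highest in replicate 3, where Ckm was at 55.5. The part of muscle RNA in the result was not tested.

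**Figure D4:**
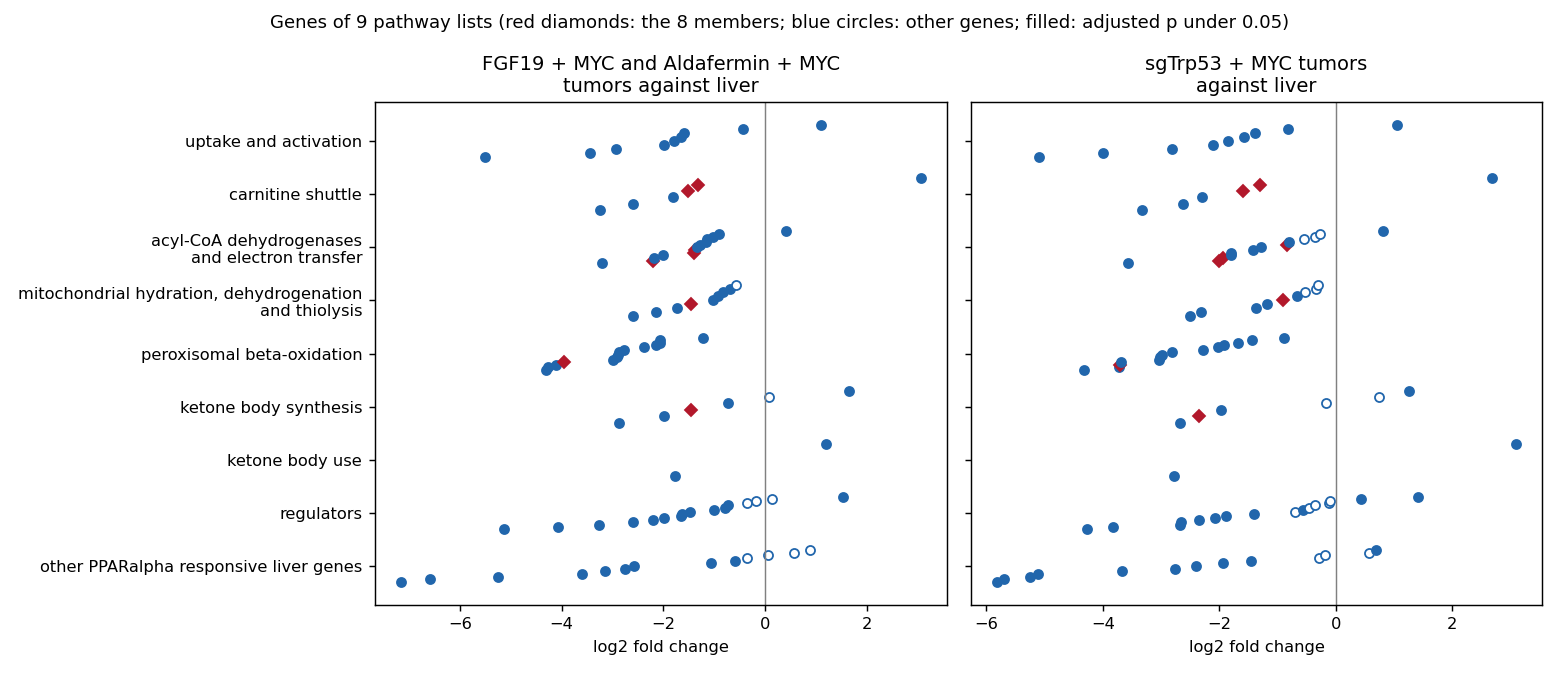
Points are log2 fold changes against liver (horizontal axes) of the tested genes of 9 lists (vertical axis), red diamonds for the 8 members and blue circles for other genes, filled where the adjusted p over all genes tested is under 0.05. Peroxisomal beta-oxidation lies wholly to the left of 0 in both panels, and Acsl3, Cpt1c, Acad9, Slc16a1, Oxct1 and Prkaa1 are filled points to the right of 0. With scaling to total counts alone the higher genes outside the members number 11 and 18, beside 8763 and 8534 of all 14333 genes tested. The ketone synthesis medians then turn to 0.07 and 0.69, while 2 of the 5 genes outside the members are still called lower in each panel.

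Of 16 regulators, 12 were lower and 1 higher in FGF19 + MYC and Aldafermin + MYC tumors (median -1.55), and 9 were lower and 2 higher in sgTrp53 + MYC tumors (-1.06). With total counts alone 9 were lower and 2 higher (-0.71) and 7 lower and 4 higher (-0.15). Ppara, the nuclear receptor that drives these genes during fasting, measured 554 ± 140 CPM in livers and 60.2 ± 13.4, 55.2 ± 27.5 and 87.8 ± 37.5 in FGF19 + MYC, Aldafermin + MYC and sgTrp53 + MYC tumors (log2 fold change -3.26 and -2.66). Fgf21, a fasting hormone among its targets, was low throughout, from 1.67 to 12.2 CPM in livers and at most 1.07 in any tumor (-4.07 and -3.82). Acacb, which makes the malonyl-CoA that inhibits Cpt1a, was the lowest of the list (-5.13 and -4.27), and the AMP kinase subunit Prkaa1 was the highest (1.53 and 1.41). Other PPARalpha responsive genes of liver were lower in 9 of 13 in both comparisons, led by the omega-hydroxylases Cyp4a14 (-7.16) and Cyp4a10 (-5.82 in sgTrp53 + MYC tumors). In sgTrp53 + MYC tumors 1 was higher, Ucp2 (0.69). Of the genes called that averaged 10 CPM or more, Angptl4 fell least in FGF19 + MYC and Aldafermin + MYC tumors (-1.06). With total counts alone 7 were lower and 3 higher, and 8 lower and 3 higher. Angptl4 was then at -0.23 (not called). Pdk4, which spares glucose when fatty acids are burned, was not called (0.88 and 0.57; called higher at 1.69 and 1.47 with total counts alone), with tumors from 8.25 to 68.5 CPM and livers from 8.01 to 35.7.

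Between the tumor groups 13 of the 80 further genes were lower and 5 higher in FGF19 + MYC and Aldafermin + MYC tumors, beside the background of 12.1% and 11.6%. The dehydrogenase and electron transfer list held 6 of the 13, Acad10 lowest at -0.78, with Acad9 (-0.40) among them. Hadhb was lower with Hadha (-0.39, adjusted p = 0.0292), as was Hadh (-0.49). Higher were the regulator Creb3l3 (0.68) and the thioesterase Acot1 (1.09), and lower were the peroxisomal carrier Abcd2 (-1.48), Acsl1 (-0.59), Acot12 (-0.75) and Prkaa2 (-0.92). Slc27a4 was higher at 0.45. Without Aldafermin + MYC replicate 5 the genes called lower numbered 20, and with no filter on low counts those called higher numbered 3. Of these 80 genes none was called between Aldafermin + MYC and FGF19 + MYC tumors (median 0.13, 60 above 0, 7 at an unadjusted p under 0.05).

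The members did not vary as 1 block among tumors of a group. Over the 15 tumors, after removal of the group means, the median Pearson correlation between pairs was 0.37, with the highest for Cpt2 and Hadha (0.80), Ehhadh and Bdh1 (0.73) and Cpt1a and Hadha (0.71), and the lowest for Cpt1a and Acadm (-0.53). These values are a description, as the points share libraries and scaling, and the 5 sgTrp53 + MYC tumors stand in a table of their own. sgTrp53 + MYC replicate 1 was 1.40 below its group mean in Cpt1a and 0.43 above it in Acadm on the log2 scale. Replicate 4 of the same group was above the mean by 1.03 in Ehhadh, 0.97 in Cpt1a and 0.97 in Bdh1. Aldafermin + MYC replicate 1 was below by 1.25 in Ehhadh and 0.84 in Cpt1a. FGF19 + MYC tumors varied least, from -0.62 for Ehhadh in replicate 2 to 0.37 for Acadl in replicate 1.

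**Figure D5:**
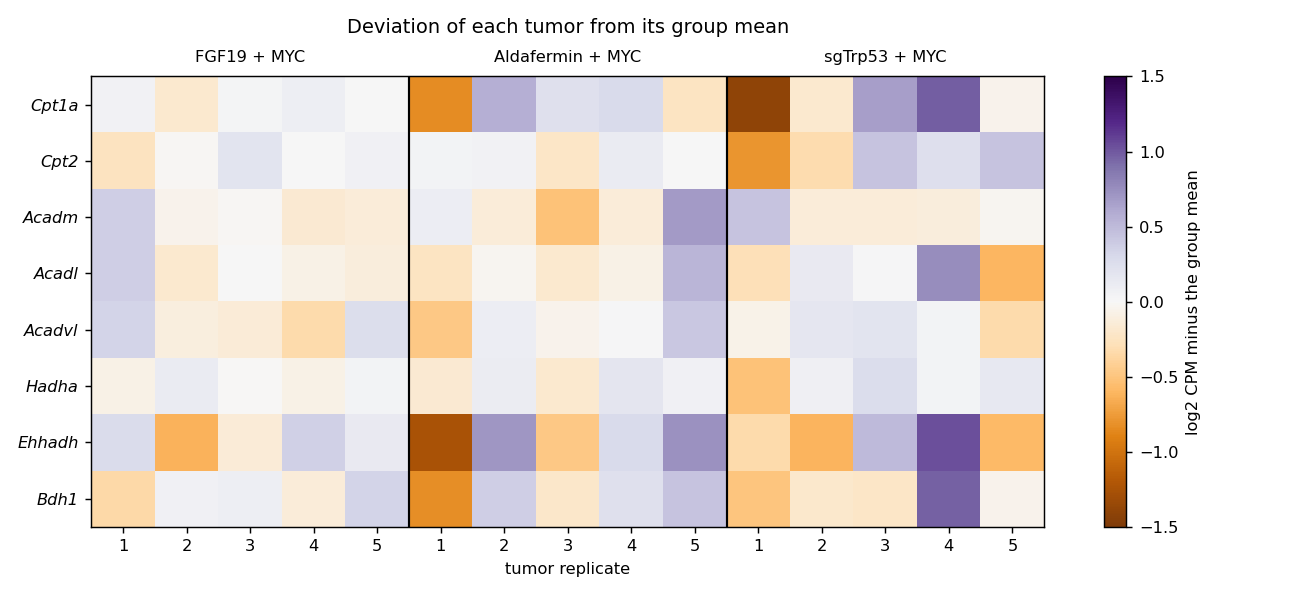
Colors give the log2 CPM of each of the 8 genes (rows) in each of the 15 tumors (columns, by group and replicate) minus the mean of its group, from orange (below) to purple (above). The FGF19 + MYC columns are pale (-0.62 to 0.37), and the deepest cells are Cpt1a in sgTrp53 + MYC replicate 1 (-1.40), Ehhadh in Aldafermin + MYC replicate 1 (-1.25) and Ehhadh in sgTrp53 + MYC replicate 4 (1.03).

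The 5 genes most like the mean of the 8 members over the 15 tumors, by Pearson r of deviations from the group means among all genes tested, were Rbl2 (0.84), Dhrs4 (0.83), Adora1 (0.83), St3gal3 (0.83) and Zfp830 (0.81). They are the highest of the 14333 genes tested other than the members, over only 15 tumors, and whether such values exceed chance was not tested. Of the listed pathway genes, similar ones were Abcd3 (0.79), which ranked 7 of all genes, Creb3l3 (0.76), Plin2 (0.75) and Acad11 (0.75), and the least similar were Cpt1c (-0.46) and Oxct1 (-0.36).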

How the data were processed

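Total RNA of 15 tumors and 5 livers had been sequenced as stranded poly(A) libraries (TruSeq Stranded mRNA, paired ends). Per the submitters' notes and the study's methods, the authors called bases with bcl2fastq 2.20.0.422, aligned reads to mm39 with HISAT2 and counted them per RefSeq gene with htseq-count, and the deposited values are raw counts of reads per gene, not normalized. The strand setting of the counting is not given in the sources used here. The sgTrp53 + MYC libraries form a table of their own, and both tables list the same 50559 genes. The 5 summary lines of htseq-count were removed. No sample column was left out.

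Groups came from the sample labels. The members and gene lists were chosen with earlier results of these data known. Both tables were joined by gene symbol, and a gene was kept where 5 or more libraries reached 1 CPM (14333 genes). Differences were tested with edgeR 4.0.16 (R 4.3.3; TMM factors, quasi-likelihood test, 4 groups in 1 model) at an adjusted p (Benjamini-Hochberg, all genes tested) under 0.05. FGF19 + MYC and Aldafermin + MYC tumors were combined as the mean of their 2 group coefficients. The fit was tested on simulated data. Correlations used log2 CPM with a prior count of 2. No libraries of a group agreed within sampling noise (lowest chi-square per degree of freedom 15.5). The precision of each value is that of 5 libraries a group at the depths given above.

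Named genes were the 8 members, a set of isoforms and partners (Cpt1b, Cpt1c, Slc25a20, Acads, Hadhb, Hadh, Hsd17b4, Bdh2, Oxct1, Ppara, Fgf21, Pdk4 and some that are not reported here), in each pathway list and comparison the called gene with the highest and with the lowest log2 fold change among those averaging 10 CPM or more, Trp53, and the 5 genes most like the members. Acad9 between tumor groups and Ckm were named after their values were seen. Alternatives were DESeq2 1.42.0, edgeR's likelihood ratio test, other scalings and filters, only the groups compared, a replicate block, an offset for GC content and exon length, each library left out and, chosen after seeing the data, liver replicates 4 and 5 left out. Gene places, lengths and sequences are from GENCODE M39 on GRCm39, matched by symbol.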

Additional observations from a re-analysis of the deposited data

Results flagged for a closer look

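In 4 of 32 groups of 5 libraries 1 library lay far from the other 4 by Dixon's test, where chance flags about 1 in 20 groups, or 1.6 of 32. They were Acadm in FGF19 + MYC replicate 1 (245.5 CPM) and in sgTrp53 + MYC replicate 1 (398.6 CPM), Acadl in Aldafermin + MYC replicate 5 (232.7 CPM) and Bdh1 in sgTrp53 + MYC replicate 4 (194.0 CPM), each the highest of its group.

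The change from liver differed between FGF19 + MYC and Aldafermin + MYC tumors on one side and sgTrp53 + MYC tumors on the other for 4 members, by edgeR's quasi-likelihood test of the difference: Acadm (-0.56 on the log2 scale, adjusted p = 0.0178), Acadl (0.63, adjusted p = 0.0222), Hadha (-0.56, adjusted p = 0.00698) and Bdh1 (0.89, adjusted p = 0.0112). Hadha was lower in 7 of 10 and Acadm in 9 of 10 of these tumors than in every sgTrp53 + MYC tumor. Group and table cannot be told apart in these differences.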

How the results depend on the processing

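Of 992 values (32 member fold changes under 31 alternatives, of which the one without liver replicates 4 and 5 was chosen after seeing the data) 968 kept their direction and side of the threshold, 9 kept the direction but were no longer called, 2 became called and 13 changed sign. With total counts alone 5 members were called lower in sgTrp53 + MYC tumors than in liver (8 with TMM), Acadm turning to 0.0248. Between FGF19 + MYC and Aldafermin + MYC tumors and sgTrp53 + MYC tumors, 1 member was called higher with no filter on low counts and 1 with the GC content and length offset. Leaving out single libraries gave 1 to 2 members higher and 1 to 3 lower, 1 being without sgTrp53 + MYC replicate 1. Acadvl became called with the GC and length offset (-0.51) and without Aldafermin + MYC replicate 5 (-0.37). In the same comparison Cpt1a changed sign with upper quartile factors (0.0021), with a filter at 10 CPM (0.0051) and with the replicate block (0.0704), and ranged from -0.24 to 0.27 with single libraries left out. Cpt2 changed sign with no filter (-0.0128) and with the GC and length offset (-0.10), and ranged from -0.0618 to 0.20. Ehhadh ranged from -0.38 to 0.10, the last without sgTrp53 + MYC replicate 4. Acadm between Aldafermin + MYC and FGF19 + MYC ranged from -0.0878 to 0.26. The cause was not tested. Deviations of same-numbered libraries of different groups had correlations from -0.333 to 0.333. Those of differently numbered libraries were not computed, so these values cannot decide whether the numbers pair samples. The replicate block left the member counts at 8, 8, 2 higher and 2 lower, and 0. With the GC and length offset 41.1% of calls between the tumor groups were higher (48.9% without), with total counts alone 42.9%.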
